A study of Mus musculus with 63 samples.

Results

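The dentate gyrus (DG) of synaptopodin-deficient (Synpo-/-) entorhino-hippocampal tissue cultures was compared with non-lesioned control tissue at 3 days after a lesion of the entorhinal cortex (ECL). The libraries were chosen by their labels alone, as DG tissue of synaptopodin-deficient mice, and comprised 11 of the 63 libraries of the study, 7 from controls and 4 from lesioned cultures. Cultures were prepared from mice of either sex at postnatal day 3 to 5 and were matured for at least 18 days in vitro. In the lesioned group the perforant path was transected with a scalpel, and in both groups the DG was isolated from a single culture per library. The mutant strain (B6.129-Synpotm1Mndl/Dllr) lacks synaptopodin in all cells and had been crossed back to C57BL/6J, the strain of the wildtype (Synpo+/+) cultures. Polyadenylated RNA was amplified with a low-input kit and sequenced, and the deposited values are read counts per gene. For comparison, 11 libraries of the Synpo+/+ DG (4 control, 7 lesioned) and 12 libraries of the Synpo-/- CA3 region (6 control, 6 lesioned) were used.

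The perforant path is the main excitatory input of dentate granule cells, and its transection leaves their outer dendrites without these synapses. Denervated granule cells are known for a loss of spines followed by a strengthening of the remaining excitatory synapses, while astrocytes and microglia of the denervated layer become reactive and clear the degenerating axons. Synaptopodin is an actin-binding protein of the spine apparatus, a stack of endoplasmic reticulum that stores calcium in spines, and spines of Synpo-/- mice do not form this organelle.

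Total counts ranged from 15967190 to 26931489 in the 7 controls and from 19044938 to 31740658 in the 4 lesioned libraries. Prox1, the transcription factor that defines granule cells, had 123.3 to 197 CPM (read counts scaled to the total of the library) in controls and 179 to 221 CPM in lesioned libraries, and both ranges lie above the 14.2 to 39.0 CPM of the Synpo-/- CA3 controls. The share of counts in mitochondrially encoded genes was 8.97% to 11.8% in controls and 6.54% to 8.20% in lesioned libraries, without overlap. Genes with more than 6000 bases of exon took 33.3% to 34.6% of counts in controls and 31.6% to 32.9% in lesioned libraries, also without overlap. Lesioned replicate 2 held 8869 CPM of Ttr, the transthyretin of choroid plexus, whereas the other 10 libraries held at most 138 CPM. Xist was above the Y-linked genes in 4 of 7 controls and 2 of 4 lesioned libraries. Among the Synpo+/+ libraries, lesioned replicate 5 is labelled DG but had 12.7 CPM of Prox1, a level of the CA3 region, and values of the Synpo+/+ DG are therefore given without it unless stated.

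Synpo, the gene targeted in these mice, still had reads in every Synpo-/- library, so its gene-level count does not mark the genotype as a loss. On a scale shared by all libraries, Synpo-/- controls had normalized counts of 930.4 to 1515 and Synpo+/+ controls 426.8 to 556.1, and the count does not show which exons were read. Within the Synpo-/- DG, the 7 controls had normalized counts of 1004 to 1612 with a median of 1243, and the lesioned libraries had 905.4, 954, 959 and 771. No lesioned library reached the lowest control. Synpo fell by 0.48 on the log2 scale (SE 0.12, adjusted p = 0.0193, edgeR quasi-likelihood test with Benjamini-Hochberg adjustment), and the call was lost without lesioned replicate 1 (adjusted p = 0.0565) or 4 (adjusted p = 0.0903). In the Synpo+/+ DG its log2 fold change was 0.29 (SE 0.13, adjusted p = 0.141). The difference between the genotypes was -0.82 (SE 0.19, adjusted p = 0.595), and -0.87 (SE 0.20, adjusted p = 0.478) with replicate 5 included.

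Across all genes, edgeR called more increases than decreases upon lesion, and changes are given as log2 fold changes where no other unit is named. Of 23310 genes tested, 783 fell (3.36%) and 1206 rose (5.17%) at an adjusted p under 0.05, and 5034 had an unadjusted p under 0.05. DESeq2 called 1290 lower and 1337 higher. Among genes with a mean normalized count over 300, 509 fell and 644 rose, but 801 were lower and 665 higher with DESeq2 and 551 lower and 541 higher with RLE size factors, so which direction held more calls depended on the tool and the scaling. The decreases were smaller, with a median log2 fold change of -0.53 and 92 genes changed over 2-fold, against a median of 0.66 and 246 genes among the increases. In 564 of the falling and 815 of the rising genes no lesioned library overlapped a control, whereas 773 (3.32%) and 1032 (4.43%) of all genes tested were separated in this way downwards and upwards. Genes that fell were longer and more abundant than other genes, with a median exon length of 5686 bases against 3505 over all genes tested and a median mean normalized count of 664.5 against 115. Genes that rose were also more abundant than all genes tested (median 337.8) but not longer (median 3480 bases). Since lesioned libraries held a smaller share of counts in long genes, the fit was repeated with the length trend of each library removed, and 706 of the 783 falling genes were called again. Without lesioned replicate 2, 560 genes fell and 1269 rose. The number that fell was 498 without control replicate 3 and 363, 383 and 406 without lesioned replicates 1, 3 and 4. In bulk tissue, fewer cells of a type and less RNA per cell cannot be told apart.

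The genes that fell with the smallest p encode transcription regulators, a vesicle priming protein and a growth factor. Tshz2, a zinc finger transcription factor of the teashirt family (chr2:169633013-170071816, GRCm38), had normalized counts of 3710 to 5129 with a median of 4425 in controls. The lesioned libraries had 1855, 1245, 2161 and 1355. All 4 lay far below the lowest control, and Tshz2 fell by 1.40 (SE 0.15, adjusted p = 3.15e-05), which is 62.0% lower. Unc13c, which encodes the vesicle priming protein Munc13-3 (chr9:73479422-73968966), ranged from 288 to 1003 in controls with a median of 665 and was 112.5, 98.6, 134 and 146 in lesioned libraries. It showed the steepest decrease among the leading genes, by 2.48 (SE 0.26, adjusted p = 3.54e-05) or 82.1%.

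Dzank1, a zinc ribbon and ankyrin repeat protein (chr2:144470557-144527414), had 3313 to 4201 (median 3864) in controls and 1793, 2096, 2143 and 1989 after lesion. Vegfa, the vascular endothelial growth factor A (chr17:46016993-46032369), had 646 to 863 (median 746) in controls and 386, 426, 428 and 382 after lesion. Replicates of these genes were tight in both groups, and the decreases were 0.90 (SE 0.10, adjusted p = 3.54e-05) and 0.86 (SE 0.10, adjusted p = 0.000110). The next genes by p were the ubiquitin ligases G2e3 and Rnf217, the guanylate cyclase subunit Gucy1a1, the zinc finger gene Zfp81, the teashirt factor Tshz3, the methylcytosine dioxygenase Tet1 and the noncoding RNAs Gm36839 and C030017B01Rik. Their log2 fold changes ran from -0.72 to -1.04, and their groups did not overlap. Gm36839 overlaps Prpf4b on the opposite strand, and Gucy1a1 contains Mir7010. Reads were counted without regard to strand, and those from the shared stretches cannot be told apart.

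Further genes led by the size of the decrease. Ero1l, an oxidase of the endoplasmic reticulum that drives disulfide formation, had 3344 to 5348 (median 4144) in controls and 1157, 2229, 2204 and 2275 after lesion and fell by 1.10 (SE 0.17, adjusted p = 0.000799). Lesioned replicate 1 was far below the other 3, which were themselves below all controls. Dsc3, the desmosomal cadherin desmocollin 3, had 677 to 1092 (median 877) in controls and 216, 246, 481 and 422.5 after lesion. It fell by 1.39 (SE 0.20, adjusted p = 0.000421). Kit, the receptor for stem cell factor (chr5:75574916-75656722), had 770.5 to 1034 (median 791) in controls and 311, 407, 534 and 443 after lesion, a decrease of 1.06 (SE 0.14, adjusted p = 0.000274). Htr2c, a serotonin receptor, and Rxfp1, the relaxin receptor, fell by 1.17 and 1.12 (adjusted p = 0.00385 and 0.000673). Cox6a2, a subunit of cytochrome c oxidase that overlaps Itgad on the opposite strand, fell to 44.1% of the control level (adjusted p = 0.000663). The groups of each of these genes were separate, with the widest spread among lesioned libraries for Htr2c, between 116 and 341.

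**Figure D1:**
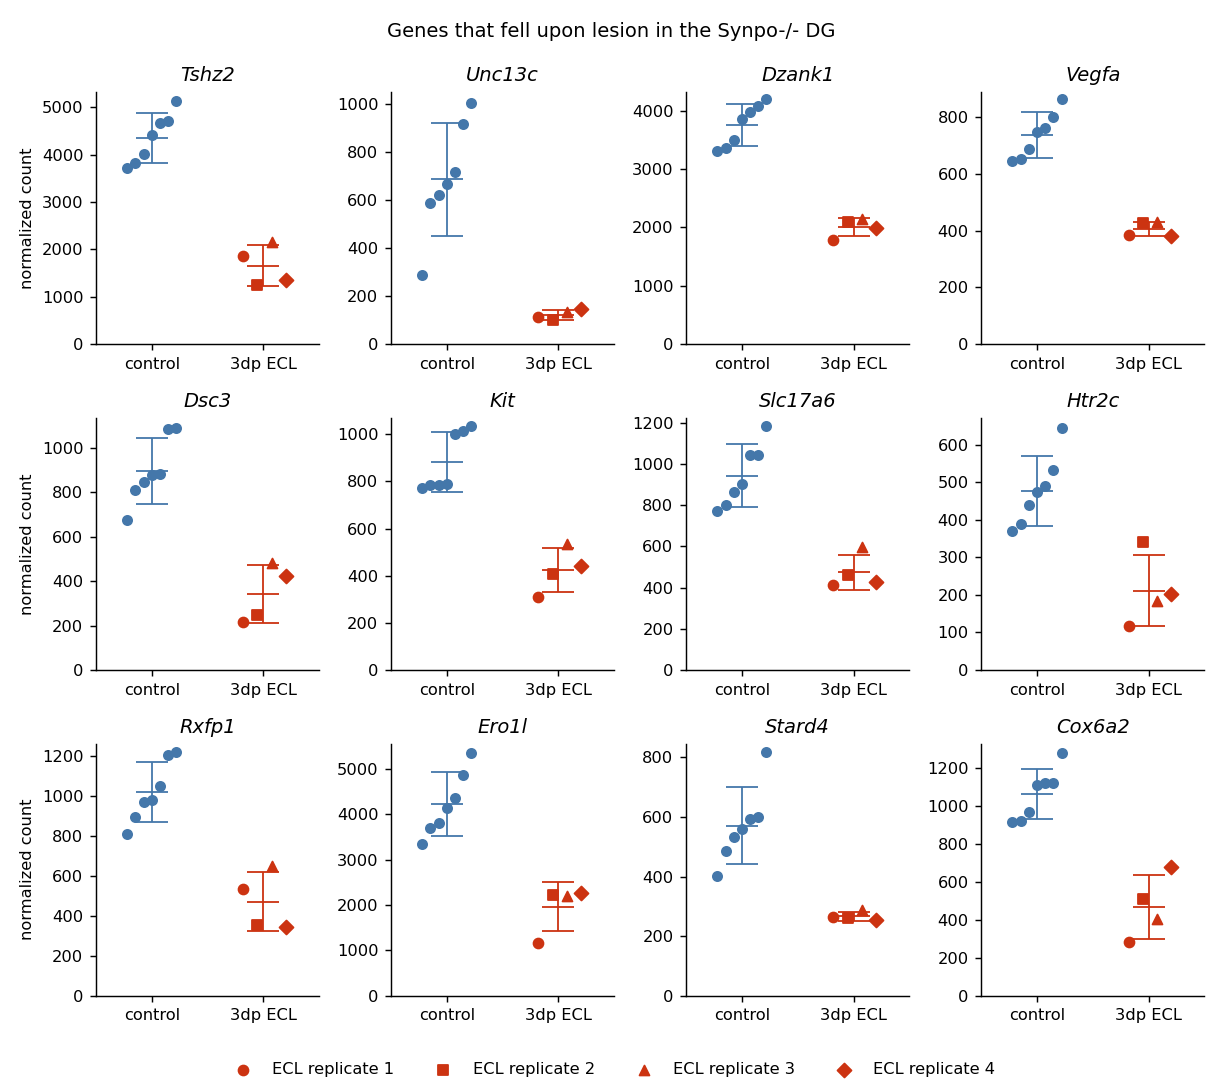
Normalized read counts of 12 genes that fell in the Synpo-/- DG, for 7 control libraries (blue, sorted by value) and 4 lesioned libraries (red, 1 symbol per replicate), with means and SD and all axes from 0. Every lesioned library lies below every control in each panel, for example at 1245 to 2161 against 3710 to 5129 for Tshz2.

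Decreases of neuronal genes were spread over many functions. For these and the following lists, the shares over all genes tested were 3.36% lower and 5.17% higher. Of 43 synaptic vesicle and active zone genes tested, 5 fell and 0 rose (median log2 fold change -0.15, against 0.01 over all genes tested). Besides Unc13c these included Slc17a6, the vesicular glutamate transporter VGLUT2, which had 769.5 to 1184 (median 899.9) in controls and 410.2, 463, 595 and 425.5 after lesion and fell by 0.99 (SE 0.14, adjusted p = 0.000320). The active zone proteins Rims3 and Rims2 fell by 0.56 and 0.44 (adjusted p = 0.00289 and 0.00456). Of 44 synaptic adhesion genes 8 fell and 1 rose, with Cadm2, Cntn3, Tenm3, Ptprd, Cntn5 and Slitrk4 at log2 fold changes from -0.42 to -0.65. The cadherin Cdh12 fell by 0.69 (adjusted p = 0.00272).

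On the postsynaptic side, 4 of 26 scaffold and spine genes fell and 0 rose (median -0.03). Dlg1, the scaffold protein SAP97, had 1979 to 2462 (median 2216) in controls and 1371, 1398, 1429 and 1063 after lesion, a decrease of 0.73 (SE 0.10, adjusted p = 0.000325). Dlg2 fell by 0.48 (adjusted p = 0.00456), and Synpo itself was a member of this list. Of 24 glutamate receptor subunits 3 fell and 0 rose, and among them the presynaptic metabotropic receptor Grm2 fell by 0.57 (adjusted p = 0.0209), a call that was lost without lesioned replicates 2, 3 or 4 in turn. Without lesioned replicates 1 or 4, 2 scaffold and spine genes fell, and of the glutamate receptors 1 fell without lesioned replicates 1, 2 or 4 and 0 without replicate 3.

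Some genes of inhibitory transmission fell as well. Of 16 GABA-A receptor subunits tested 4 fell and 0 rose (median -0.26). Gabrd, the subunit of extrasynaptic receptors of granule cells, had 131 to 197 (median 157) in controls and 93.7, 90.8, 78.6 and 65.2 after lesion, which is 48.8% lower (log2 fold change -0.97, SE 0.16, adjusted p = 0.00156). Gabrb2 fell by 0.64 (adjusted p = 0.00179), also without overlap. Gabrq fell by 1.97 (adjusted p = 0.0136) from low counts, 8.82 to 61.5 in controls against 5.51 to 9.29. Among 17 interneuron markers Kit and Gad1 fell and 0 rose (median -0.22). Gad1, which synthesizes GABA, had overlapping groups (6365 to 8561 against 4269 to 6816) and lost the call in 6 of 11 fits that left out 1 library (controls 2, 3 or 5, lesioned 1, 2 or 3), and its partner Gad2 had a log2 fold change of -0.22 (adjusted p = 0.298). Erbb4, the neuregulin receptor, fell by 0.62 (SE 0.09, adjusted p = 0.000557).

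Potassium channel genes were called in both directions. Of 87 potassium channel subunits 10 fell and 4 rose. Kcnb2, a delayed rectifier subunit, had 1170 to 1436 (median 1368) in controls and 681.5, 869.8, 849 and 862 after lesion, a decrease of 0.70 (SE 0.10, adjusted p = 0.000385). Kcnh7, Kcnj3 and Kcnt2 fell by 0.70, 0.57 and 0.50. The genes of the glial inward rectifiers Kcnj10 and Kcnj16 rose by 1.00 and 1.06 (adjusted p = 0.000493 and 0.000519). Of 32 voltage-gated sodium and calcium channel subunits 6 fell and 0 rose, and among them Cacnb4 and Scn3a fell by 0.50 and 0.43 (adjusted p = 0.00551 and 0.00592). Itpr1, the receptor through which inositol trisphosphate releases stored calcium, had 2100 to 2940 (median 2421) in controls and 1711, 1998, 1879 and 1267 after lesion and fell by 0.55 (SE 0.12, adjusted p = 0.0106). It was 1 of 2 members of the calcium store list that fell, of 17 tested, while 1 rose, and the other lost its call without control replicates 1, 2, 3, 5 or 7 or lesioned replicates 1, 2 or 3. Without lesioned replicate 1, 6 potassium channel genes fell, and without lesioned replicates 1 or 3, 2 sodium and calcium channel genes fell.

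Lists of signalling genes held calls in both directions, beside 3.36% lower and 5.17% higher over all genes tested. Of 31 cyclic nucleotide enzymes 1 fell and 1 rose, of 21 RGS proteins 2 fell and 3 rose, of 35 growth factors and their receptors 5 fell and 3 rose, and of 17 circadian clock genes 2 fell and 1 rose. Adcy1, a calcium-stimulated adenylyl cyclase, fell by 0.58 (adjusted p = 0.00712), Rgs13, a regulator of G protein signalling, by 1.63 (adjusted p = 0.00120) and Fgf12 by 0.53 (adjusted p = 0.0109). Hapln1, the link protein that ties hyaluronan to proteoglycans of perineuronal nets, had 3007 to 5620 (median 3537) in controls and 1453, 1833, 1908 and 2489 after lesion and fell by 0.99 (SE 0.17, adjusted p = 0.00146), whereas 11 of the other matrix genes rose, of 32 tested. That count was 6 without control replicates 3 or 6, 5 without lesioned replicate 1 and 7 without lesioned replicate 2. Tmsb10, a thymosin that binds actin monomers, fell by 0.66 (adjusted p = 0.000421) while 10 of 28 actin regulators rose. That count was 5 or 6 without control replicates 1, 3, 4 or 7 or lesioned replicates 1 or 3, and 4 without lesioned replicate 4. Hlf, a clock output transcription factor, fell by 0.66 (adjusted p = 0.00403). Dcx, a microtubule protein of immature neurons, fell by 0.46 (adjusted p = 0.0171), a call lost without lesioned replicates 1, 2 or 3.

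Markers of the excitatory cell types were measured beside these decreases. Of 11 granule cell genes 0 were called by edgeR in either direction, 5 had an unadjusted p under 0.05, DESeq2 called 1 lower, and the median log2 fold change was -0.01. Prox1 had a log2 fold change of 0.25 (SE 0.11, adjusted p = 0.168) and Calb1, the calcium buffer calbindin, of 0.62 (SE 0.29, adjusted p = 0.227), with 2089 and 2376 in lesioned replicates 1 and 2 and 7582 and 6634 in replicates 3 and 4. Of 7 CA3 pyramidal cell genes 0 were called (1 with an unadjusted p under 0.05, 0 in DESeq2). Of 6 genes of CA1 and subiculum 2 fell and 0 rose (median -0.15), 1 without lesioned replicate 3 and 0 without lesioned replicate 4, and their summed level was 56.5 to 85.8 CPM in controls and 48.4 to 74.3 CPM after lesion. Of 5 hilar mossy cell markers 2 rose and 0 fell (median 0.34), at most 1 rose without any single library other than control replicate 2, and their summed level was 109 to 299 CPM in controls and 106, 183, 202 and 459 CPM after lesion.

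**Figure D2:**
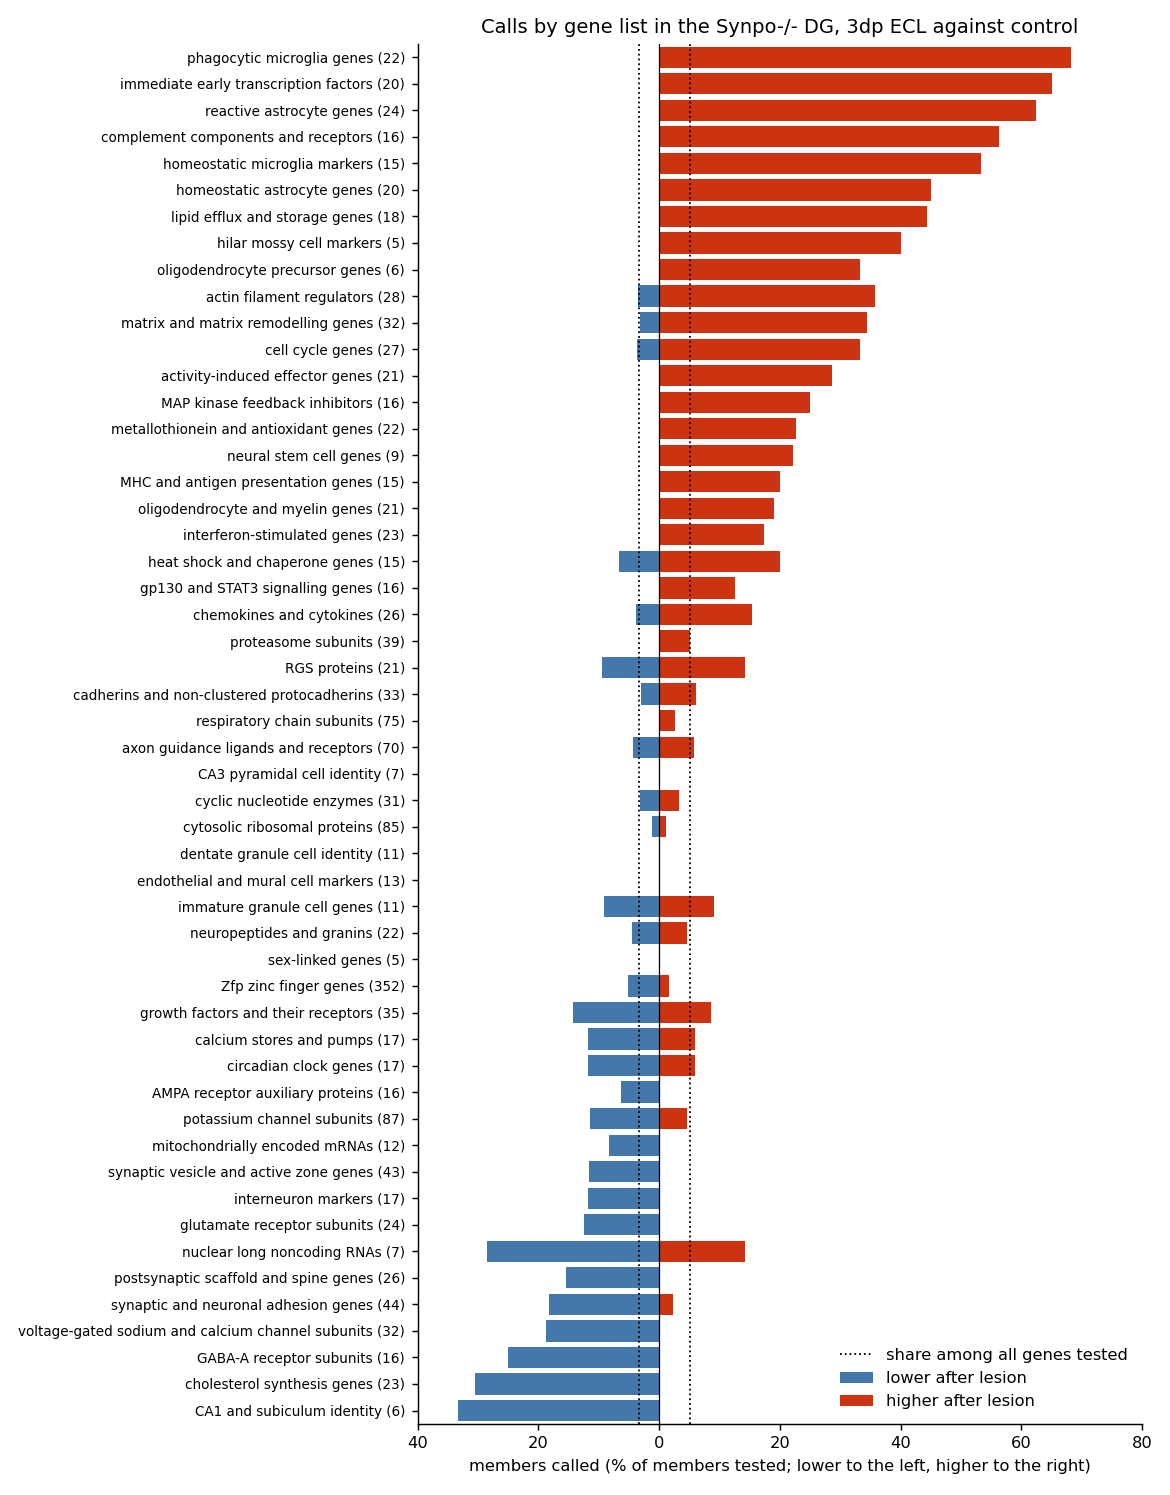
Share of members called lower (blue, to the left) and higher (red, to the right) upon lesion in the Synpo-/- DG for each gene list with at least 5 members tested (number tested in parentheses), with dotted lines at the shares among all genes tested (3.36% lower, 5.17% higher). Glial and immediate early lists extend to the right, up to 15 of 22 phagocytic microglia genes, and sterol, GABA-A receptor, channel and adhesion lists to the left.

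Cholesterol is made from acetyl-CoA by enzymes whose genes are switched together by SREBP, a factor that binds sterol regulatory elements next to CCAAT boxes, and Insig1 and Stard4 encode a sterol sensor partner and a sterol carrier under the same control. Of 23 genes tested 7 fell and 0 rose (median -0.30), and 21 had a log2 fold change below 0. Stard4 had 402 to 818 (median 560) in controls and 265, 261, 289 and 253 after lesion and fell by 1.09 (SE 0.15, adjusted p = 0.000348). Insig1 had 701 to 919.5 (median 842) in controls and 471, 526, 508 and 463 after lesion, a decrease of 0.72 (SE 0.10, adjusted p = 0.000274). In both genes the lesioned libraries were close to each other and below all controls. Hmgcs1, which makes the precursor of mevalonate, fell by 0.66 (adjusted p = 0.000774) and the isomerase Idi1 by 0.75 (adjusted p = 0.0126). The later enzymes Msmo1, Lss and Cyp51 were called at adjusted p = 0.0374, 0.0383 and 0.0472 and lost the call when several single libraries were left out. Of the 7 members, 4 were called without controls 1, 2, 3 or 6 or lesioned replicates 2, 3 or 4, and 3 without lesioned replicate 1. Idi1 lost it without lesioned replicate 1 (adjusted p = 0.0574). In the Synpo+/+ DG 7 members fell and 1 rose.

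Since these genes moved together, their promoters were read from RefSeq (GRCm38.p6, 250 bases before to 50 bases after the start of transcription) for the 6 called members with a matching window. Capitals mark CCAAT on either strand (ATTGG where it lies on the other) and, in Hmgcs1, the sterol regulatory element TCACCCCAC, and no 2 marked stretches overlap.
Insig1 chr5:28071162-28071461, + strand: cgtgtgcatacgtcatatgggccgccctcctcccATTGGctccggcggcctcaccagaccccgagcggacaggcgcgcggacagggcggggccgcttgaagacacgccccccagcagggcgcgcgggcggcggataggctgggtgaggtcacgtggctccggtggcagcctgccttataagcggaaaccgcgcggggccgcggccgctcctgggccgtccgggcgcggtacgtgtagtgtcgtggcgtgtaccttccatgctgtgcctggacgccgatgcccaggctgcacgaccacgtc
Hmgcs1 chr13:119690101-119690400, + strand: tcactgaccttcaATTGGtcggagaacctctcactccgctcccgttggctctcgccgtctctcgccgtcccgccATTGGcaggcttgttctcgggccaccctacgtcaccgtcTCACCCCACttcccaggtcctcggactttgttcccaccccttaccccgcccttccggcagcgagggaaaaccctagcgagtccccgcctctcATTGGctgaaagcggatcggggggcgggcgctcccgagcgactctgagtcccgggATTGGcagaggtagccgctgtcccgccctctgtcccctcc
Idi1 chr13:8885356-8885655, + strand: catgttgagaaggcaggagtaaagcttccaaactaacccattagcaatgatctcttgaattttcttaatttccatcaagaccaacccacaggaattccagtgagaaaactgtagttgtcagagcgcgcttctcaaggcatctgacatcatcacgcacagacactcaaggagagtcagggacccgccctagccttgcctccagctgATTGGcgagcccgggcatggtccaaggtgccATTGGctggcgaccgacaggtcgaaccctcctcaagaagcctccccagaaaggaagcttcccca
Msmo1 chr8:64733529-64733828, - strand: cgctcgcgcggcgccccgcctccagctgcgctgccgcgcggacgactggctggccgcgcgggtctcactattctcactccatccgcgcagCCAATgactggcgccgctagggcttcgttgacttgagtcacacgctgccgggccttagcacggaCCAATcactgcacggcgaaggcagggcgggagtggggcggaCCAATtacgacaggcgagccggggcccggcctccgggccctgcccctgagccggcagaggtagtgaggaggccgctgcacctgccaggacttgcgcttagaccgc
Lss chr10:76531355-76531654, + strand: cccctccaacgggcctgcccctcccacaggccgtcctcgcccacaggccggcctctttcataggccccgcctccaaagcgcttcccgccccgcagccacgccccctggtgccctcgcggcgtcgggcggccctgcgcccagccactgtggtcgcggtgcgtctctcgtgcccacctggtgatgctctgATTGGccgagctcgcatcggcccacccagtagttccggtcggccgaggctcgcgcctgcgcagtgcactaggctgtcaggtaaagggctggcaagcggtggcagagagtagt
Cyp51 chr5:4104648-4104947, - strand: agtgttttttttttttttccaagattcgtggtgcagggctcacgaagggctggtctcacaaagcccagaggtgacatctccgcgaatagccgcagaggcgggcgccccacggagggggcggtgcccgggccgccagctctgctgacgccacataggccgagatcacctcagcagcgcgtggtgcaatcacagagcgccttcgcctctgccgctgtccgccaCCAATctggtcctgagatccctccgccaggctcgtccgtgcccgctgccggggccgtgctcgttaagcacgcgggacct
All 6 windows held CCAAT, and so did 15 of the 16 listed genes with a window, whereas 38.3% of the windows of all genes tested (14865 of 23310 matched) and 40.1% of those of falling genes did. The letters TCACCCCAC occurred in 1 of the 6, at 137 bases before the start of Hmgcs1, and in 0.538% of all windows. These matches describe the sequences and do not show that a factor was bound.

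Immediate early genes are transcribed within minutes of synaptic activity or injury and encode transcription factors and synaptic effectors. Of 20 immediate early transcription factors tested 13 rose and 0 fell (median 1.23). Egr1 had normalized counts of 337 to 615 (median 408) in controls and 2617, 2124, 2832 and 1768 after lesion, a 5.56-fold increase (log2 fold change 2.48, SE 0.15, adjusted p = 1.05e-07). Egr2 was at 13.2 to 38.3 (median 19.9) and then at 307, 323, 386 and 153 (13.7-fold, adjusted p = 5.14e-07). Arc, which regulates the trafficking of AMPA receptors, was at 15.1 to 50.4 (median 25.7) and then at 434.5, 250.2, 331 and 152 (9.69-fold, adjusted p = 5.95e-06). Lesioned replicate 4 was the lowest of the lesioned libraries in each of these genes and still above every control. Nr4a1, Fos and Btg2 rose 6.02-, 4.32- and 4.41-fold. Of 21 activity-induced effector genes 6 rose and 0 fell, among them Gadd45g (1.15, adjusted p = 0.00153), the kinase Plk2 (0.55, adjusted p = 0.00470) and the neurotrophin Bdnf (0.75, adjusted p = 0.0179, lost without lesioned replicates 3 or 4). Its receptor Ntrk2 rose by 0.43 (adjusted p = 0.00651).

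Motifs of activity-regulated promoters were sought in the same windows on both strands, among them the cyclic AMP response element TGACGTCA, which reads the same on both, and the CArG box. Among these genes TGACGTCA was present in 1 of 17 transcription factors with a window (Btg2) and 3 of 13 effectors, among them Plk2, and in 2.72% of all windows, 2.2% of those of rising and 3.26% of those of falling genes. Both called genes are shown with the element in capitals.
Btg2 chr1:134079106-134079405, - strand: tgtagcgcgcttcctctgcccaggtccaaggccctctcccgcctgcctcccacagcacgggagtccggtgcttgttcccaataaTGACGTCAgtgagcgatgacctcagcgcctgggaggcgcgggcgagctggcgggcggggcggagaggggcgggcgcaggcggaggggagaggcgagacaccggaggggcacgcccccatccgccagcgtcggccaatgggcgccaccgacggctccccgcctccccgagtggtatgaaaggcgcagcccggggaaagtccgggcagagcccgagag
Plk2 chr13:110394794-110395093, + strand: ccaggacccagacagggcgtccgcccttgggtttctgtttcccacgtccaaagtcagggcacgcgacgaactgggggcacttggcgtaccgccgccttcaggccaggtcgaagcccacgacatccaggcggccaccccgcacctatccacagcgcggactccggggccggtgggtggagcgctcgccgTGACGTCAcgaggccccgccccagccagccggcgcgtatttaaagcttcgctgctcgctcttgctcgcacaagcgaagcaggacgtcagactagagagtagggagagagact
The CArG box was in 0 of the 17 and 0 of the 13 windows, and in 1.35% of all windows. Egr1 and Arc had no matching window and were not read. Elements farther from the start than these windows reach were not read.

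Astrocyte and microglia genes rose together. Of 24 reactive astrocyte genes 15 rose and 0 fell (median 0.74), and Gfap, the intermediate filament of astrocytes, was at 20450 to 29070 (median 26520) in controls and at 80560, 59730, 55250 and 53380 after lesion, a 2.47-fold increase (adjusted p = 8.67e-06). Vim, a filament protein of reactive glia, Lgals1, a galectin, and S1pr3, a sphingosine phosphate receptor, rose 2.26-, 2.14- and 2.51-fold, and the noncoding RNA C530044C16Rik rose by 1.48 on the log2 scale. Of 20 homeostatic astrocyte genes 9 rose and 0 fell. Of 22 phagocytic microglia genes 15 rose and 0 fell (median 0.79), and of 15 homeostatic microglia markers 8 rose. Aif1, which encodes Iba1, was at 1194 to 2381 (median 1624) in controls and at 3546, 3477, 3549 and 3450 after lesion (2.11-fold, adjusted p = 0.000140). The complement gene C1qa rose 2.28-fold and Spp1, osteopontin, 3.56-fold. P2ry12, a receptor of resting microglia, had a log2 fold change of 0.05 (SE 0.24, adjusted p = 0.950). The lipid exporter Abca1 was at 1870 to 2365 (median 2232) and then at 4933, 5118, 4688 and 5662 (2.34-fold, adjusted p = 5.75e-07), and 8 of 18 lipid efflux and storage genes rose while 0 fell. Mki67, a proliferation marker, rose by 1.07 and 9 of 27 cell cycle genes rose.

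The summed level of the 24 reactive astrocyte genes was 2003 to 2385 CPM in controls and 4196 to 6454 CPM in lesioned libraries, and that of the 22 phagocytic microglia genes 3192 to 4798 and 6238 to 6957 CPM, both without overlap. Endothelial and mural markers gave 0 calls of 13 tested in edgeR and of 14 in DESeq2, 1 had an unadjusted p under 0.05, and they had overlapping sums (139 to 242 against 168 to 240 CPM). Of 6 blood immune markers 2 passed the filter on low counts, and the 6 summed to at most 3.465 CPM in any of the 11 libraries. Glial transcripts took a larger share of the lesioned libraries beside each decrease of a neuronal gene, and their part in these decreases was not tested. Ttr, which led the increases by fold, rested on lesioned replicate 2. It had 201200 normalized counts there and 128 to 3190 in the other 3, and its log2 fold change went from 6.62 (adjusted p = 0.00787) to 1.26 (adjusted p = 0.465) without that library. Cox5a, called higher at an adjusted p of 0.0193, was at 1259, 341, 4447 and 4503 in the lesioned libraries against 323 to 1324 and lost the call without replicate 3 or 4. Apoe, the main lipid carrier of the brain, was also lowest in lesioned replicate 2 and then in replicate 1 (40330, 14190, 57950 and 56850 against 8763 to 23040, adjusted p = 0.00592).

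**Figure D3:**
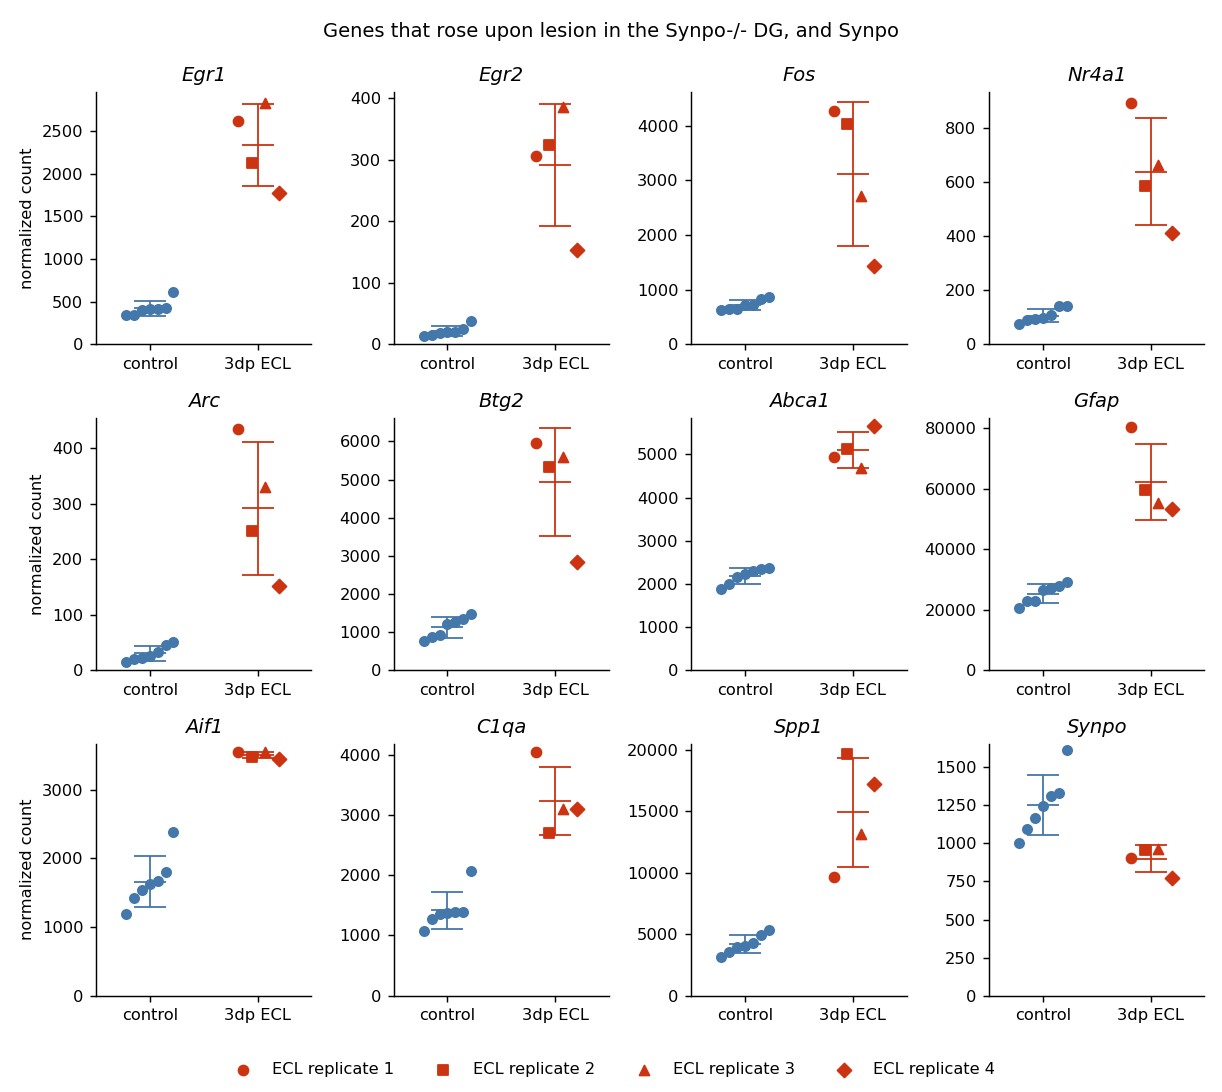
Normalized read counts of 11 genes that rose upon lesion in the Synpo-/- DG and of Synpo, for 7 control libraries (blue, sorted by value) and 4 lesioned libraries (red, 1 symbol per replicate), with means and SD and all axes from 0. Lesioned libraries lie above all controls for the 11 genes, with replicate 4 lowest for Egr1, Egr2, Fos, Nr4a1, Arc and Btg2, and below all controls for Synpo.

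To ask whether the response differed with the genotype, the lesion effect was tested in the Synpo+/+ DG and as an interaction over all DG libraries. No library is shared between the genotypes. In the Synpo+/+ DG 1252 genes fell (5.3%) and 1998 rose (8.46%), and with replicate 5 included 1022 fell (4.31%) and 1864 rose (7.86%). Of the 783 genes that fell in the Synpo-/- DG 779 were tested in the Synpo+/+ DG, and 746 had a log2 fold change below 0 there (11579 of 22503 among all genes tested in both) while 259 fell. Their median was -0.33, against -0.53 in the Synpo-/- DG. The genes were chosen by their calls in the Synpo-/- DG, which enlarges its median, so the sizes cannot be compared. Of the 1206 rising genes 1193 of 1205 were above 0 and 802 rose (median 0.61). Synpo+/+ lesioned replicates 1 and 3 held 2472 and 6179 CPM of Ttr, against 3.39 to 56.3 CPM in Synpo+/+ controls. The part of choroid plexus tissue in the genes that rose in both genotypes was not tested. All 4 Synpo+/+ controls and 4 of 7 lesioned libraries had Xist above the Y-linked genes, so in this genotype sex moved with the lesion, and its part was not tested.

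In the interaction, 1 of 26245 genes (0.00381%) was called, and 2730 had an unadjusted p under 0.05. The gene was Eps8l1, related to the actin regulator Eps8, with a log2 fold change of 0.76 (adjusted p = 0.0945) in the Synpo-/- DG and -1.72 (adjusted p = 0.00138) in the Synpo+/+ DG with all libraries, an interaction of 2.45 (SE 0.39, adjusted p = 0.0267), and of 2.39 (adjusted p = 0.0427) without replicate 5. Its counts were low, at 23.8 to 61.7 in Synpo-/- controls and 94.8, 82.9, 62.6 and 39.4 after lesion, and the count of called genes was 0 in 11 of the 22 fits that left out 1 library. Among the genes described above, the falls of Unc13c, Dsc3, Rxfp1 and Kit in the Synpo-/- DG stood beside log2 fold changes of -1.095, -0.31, -0.19 and -0.42 in the Synpo+/+ DG, differences of -1.42 (SE 0.40), -1.13 (SE 0.38), -0.98 (SE 0.31) and -0.69 (SE 0.20), each at an adjusted p of 0.595. Vegfa, Cox6a2 and Htr2c had -0.86, -1.24 and -1.22 in the Synpo+/+ DG, and their differences were -0.06 (SE 0.19), 0.01 (SE 0.28) and -0.01 (SE 0.40).

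**Figure D4:**
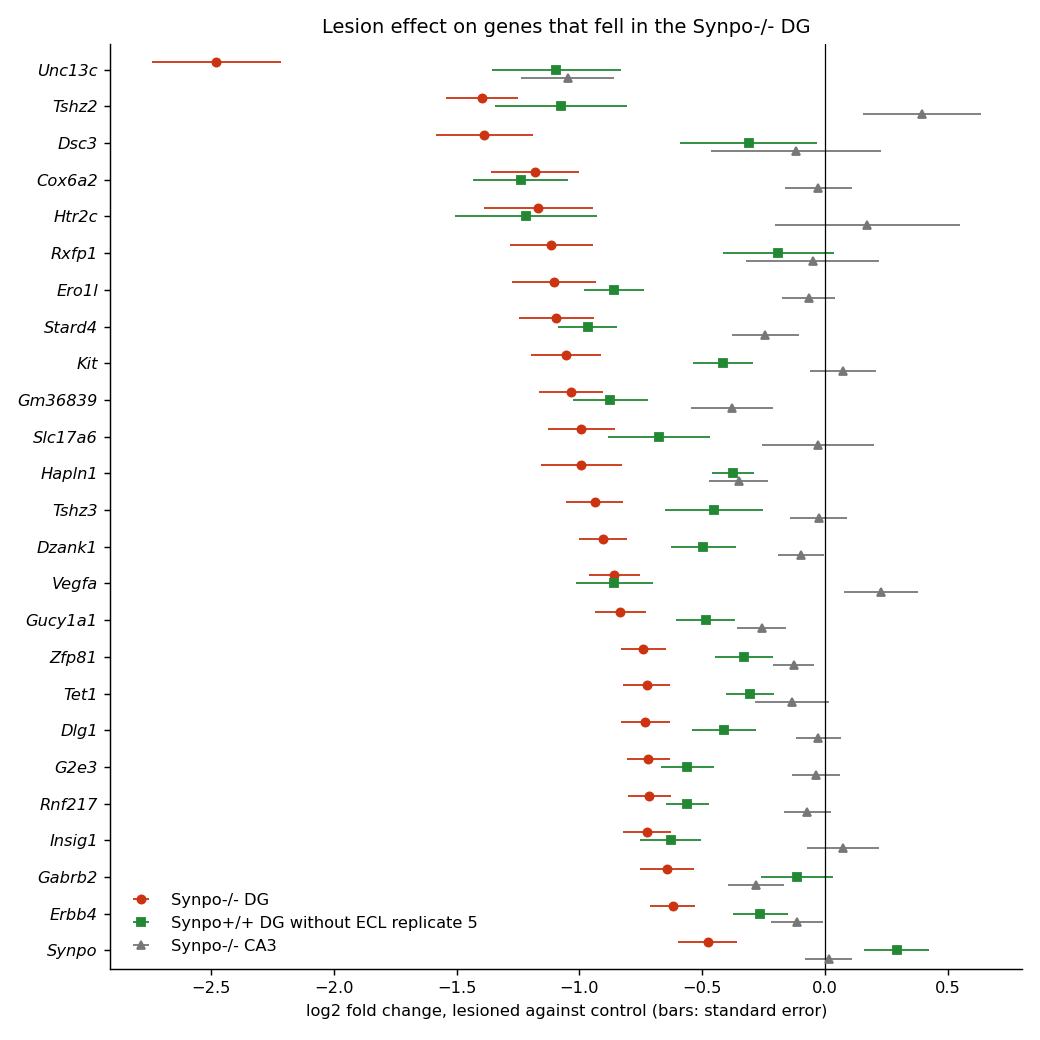
Log2 fold change of lesioned against control tissue with its standard error for 25 genes that fell in the Synpo-/- DG (red), in the Synpo+/+ DG without lesioned replicate 5 (green) and in the Synpo-/- CA3 region (grey). Points of the Synpo+/+ DG lie to the left of 0 for the 24 genes other than Synpo, and those of CA3 between -0.38 and 0.40 except for Unc13c at -1.05.

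In the Synpo-/- CA3 region, which also receives a direct input from the perforant path, 5 genes fell (0.0241%) and 11 rose (0.053%) of 20772 tested. Of the 783 genes that fell in the DG 763 were tested in CA3, 549 were below 0 (10250 of 20583 among all genes tested in both), their median was -0.09, and 1 fell. This was Unc13c, which fell by 1.05 in CA3 (adjusted p = 0.0445). The interaction of region with lesion was tested for 25435 genes. It was called for 61 with a lower (0.24%) and 223 with a higher (0.877%) value in the DG. Among them were 58 of the falling and 211 of the rising genes. Both sets of calls use the same Synpo-/- DG libraries, so this overlap is partly built into the design. Leading genes were Tshz2 (interaction -1.80, SE 0.30, adjusted p = 0.00285), Vegfa (-1.10), Tshz3 (-0.93) and Dzank1 (-0.83), and with higher values Cryba4, a crystallin, the microglial receptor Adgre1, the oligodendrocyte gene Bcas1, and the astrocyte genes Slc25a18 and Aldh1l1, which differed by 0.87 to 2.02. Tshz2 was at 151 to 216 CPM in DG controls and 4.07 to 5.98 CPM in CA3 controls. Lesioned CA3 libraries had a median of 5.61 CPM. Lesioned CA3 replicate 1 stood apart at 14.4 CPM, and the next highest was replicate 3 at 6.07 CPM.

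**Figure D5:**
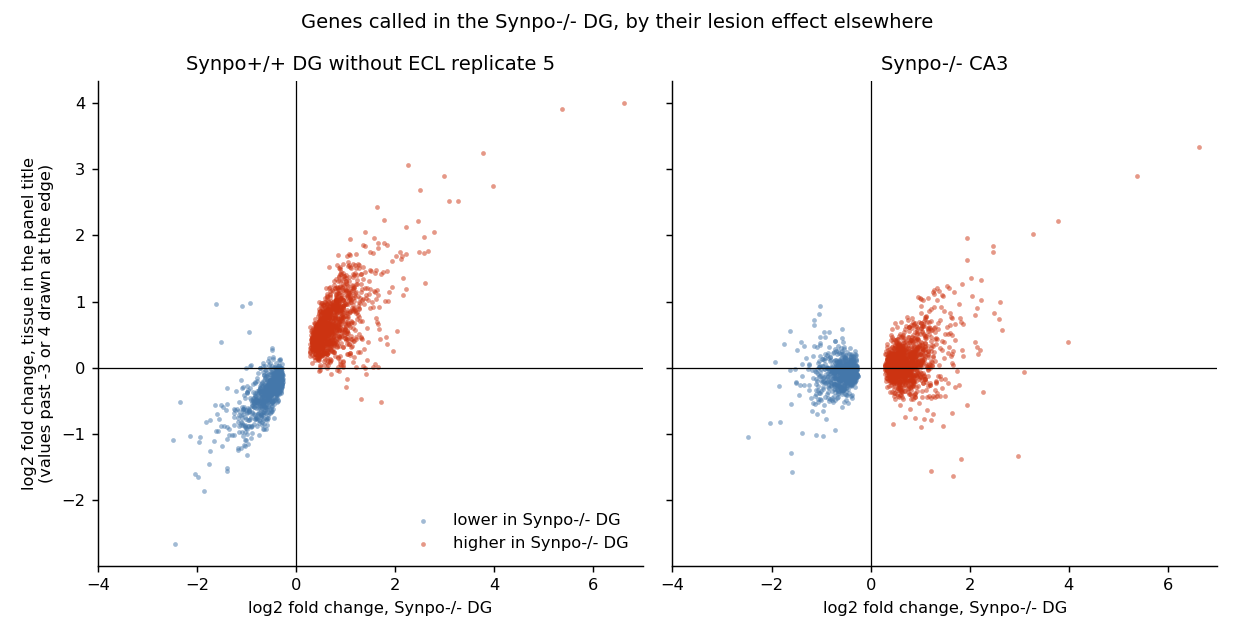
Log2 fold change of each of the 783 falling (blue) and 1206 rising (red) genes in the Synpo-/- DG on the horizontal axis, against that in the Synpo+/+ DG without lesioned replicate 5 (left) and in the Synpo-/- CA3 region (right). Most points share their direction with the Synpo+/+ DG (746 of 779 and 1193 of 1205). In CA3 549 of 763 falling genes lie below 0 and 726 of 1201 rising genes above 0, with medians of -0.09 and 0.05.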

How the data were processed

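RNA-seq read counts per gene of single DG or CA3 explants were analysed for 34 libraries. Per the study's methods, the authors trimmed reads with cutadapt 3.5, aligned them to mm10 with RNA STAR 2.7.8a and counted exon reads of GENCODE vM25 genes without strand with featureCounts 2.0.1. The kit carried no molecular identifiers, so amplification copies are counted. The deposited values are raw counts, and total counts per library are given with the results. Groups were taken from the sample labels. Each library held the DG or CA3 of a single culture, but the labels tie no cultures to animals, so p-values measure the spread between cultures. The labels also do not say whether a DG and a CA3 library came from the same culture. The region interaction treated them as separate cultures.

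Counts were fitted in R 4.3.3 with edgeR 4.0.16 (TMM, filterByExpr, quasi-likelihood test, Benjamini-Hochberg adjustment over all genes tested, called at an adjusted p under 0.05), with only the groups compared in each fit. Normalized counts are counts divided by TMM size factors. Alternatives were DESeq2 1.42.0, voom with sample weights (limma 3.58.1), RLE factors, no filter, removal of a length trend, all DG groups in 1 fit, culture sex, a replicate block, a mean normalized count over 300 (the limit of the study) and leaving out each library. On simulated data the fit called 200 of 200 genes changed 4-fold and 14 unchanged genes among 22752. Most changes called in the data were smaller, with median log2 fold changes of -0.53 and 0.66. Recovery of changes of that size was not tested.

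Named genes were, among called genes with a mean normalized count over 300, the 12 lower and 8 higher by p and the 10 lower and 6 higher by fold, at most 6 per gene list by p with defining markers, up to 5 per direction in each interaction, and Synpo. Cyp51, Adm, Bnip3, Pfkfb3 and Hk2 were chosen after their values were seen. Members and lists were chosen with earlier results of these data known. Promoter sequences and coordinates of their windows were from RefSeq. Some genes that the rule selects are not reported here.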

Additional observations from a re-analysis of the deposited data

Results flagged for a closer look

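Of 210 groups of libraries checked, each for 1 gene, 12 held a library far from the others, where chance gives about 1 in 20. Among lesioned Synpo-/- DG libraries these were Ero1l in replicate 1 (1157 normalized counts, next 2204), Kcnb2 in replicate 1 (681.5), Gadd45g in replicate 1 (3862), Ttr in replicate 2 (201200, next 3190), Tenm3 in replicate 3 (555.1), Dlg1 in replicate 4 (1063) and Adgre1 in replicate 4 (588.6). Among controls they were Hapln1 (5620), Adgre1 (379.3) and C1qa (2071) in replicate 2 and Egr1 (615.2) and Egr2 (38.33) in replicate 7. Ttr is the gene among these whose call was lost without the library.

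The lesion effect differed between the genotypes for Eps8l1 (log2 difference 2.453, adjusted p = 0.0267), from low counts. This call was lost with the replicate block and in some fits that left out single libraries. The lesion effect differed between DG and CA3 of Synpo-/- cultures for Tshz2 (-1.804), Dzank1 (-0.8279), Vegfa (-1.097), Tshz3 (-0.9258) and the noncoding RNA 9130024F11Rik (-2.134, counted without regard to strand), which were lower in the DG, and for Aldh1l1 (0.8666), Slc25a18 (1.244), Bcas1 (1.514), Adgre1 (1.593) and Cryba4 (2.024), which were higher, with adjusted p between 0.00118 and 0.00531.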

How the results depend on the processing

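Among 100 called genes followed singly, 0 reversed in any of the alternatives, and 99 of 99 with an adjusted p in DESeq2, 100 with RLE factors and 99 with the length trend removed were called again. With all DG groups in 1 fit 91 were called, with the replicate block 72, and leaving out single libraries cost 12 genes their call at least once. The count of genes that fell was 1290 with DESeq2, which shared 773 of the 783. Among genes with a mean normalized count over 300, edgeR called 1153 in both directions, 644 higher and 509 lower. P2ry12, which was not called, reversed with the length trend removed (-0.037), with the block (-0.31) and without controls 5 or 7 or lesioned replicate 3, in a range of -0.066 to 0.186 over single libraries left out.

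Replicate numbers did not pair the samples, since deviations of same-numbered libraries correlated at 0.067, -0.189, 0.153 and -0.099. Pairs with different numbers ran from -0.2598 (control 7 with lesioned replicate 3) to 0.2793 (control 2 with lesioned replicate 3). A grouping of libraries other than by replicate number was not tested. With the replicate number as a block over 4 pairs, 495 genes were called, 269 higher and 226 lower, with 0 in the genotype interaction and 294 in the region interaction.

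Leaving out 1 library gave 1118 to 1925 calls, 363 to 773 lower and 755 to 1269 higher, and without lesioned replicates 1, 3 and 4 the total was 1118, 1178 and 1302. The genotype interaction gave 0 to 1. The region interaction gave 131 (without DG lesioned replicate 1) to 401, and 179 without CA3 control 3, against 677 with DESeq2 and 439 with voom. The Synpo+/+ DG gave 999 to 3338, with 1021, 1016 and 999 without controls 2, 3 and 4 and 1400 without lesioned replicate 4. CA3 gave 5 to 22, with 5 and 9 without controls 2 and 3 and 8, 10 and 9 without lesioned replicates 2, 3 and 4, against 68 with DESeq2 and 86 without a filter. The cause was not tested.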

Other observations

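Other gene groups of the Synpo-/- DG are given beside the 5.17% of all genes tested that rose and the 3.36% that fell. Of 16 complement genes 9 rose and 0 fell (median 0.68), and of 23 interferon-stimulated genes 4 rose and 0 fell (median 0.54). Of 21 oligodendrocyte and myelin genes 4 rose and 0 fell (median 0.34), with 0 called without lesioned replicate 1, 1 without control replicate 3 and 2 without control replicate 7 or lesioned replicates 3 or 4. Their summed level was 724 to 2010 CPM in controls and 2263, 1204, 1269 and 868 CPM after lesion, so that lesioned replicate 1 alone lay above the controls. Of 16 feedback inhibitors of MAP kinases, which are induced with immediate early genes, 4 rose and 0 fell (median 0.37). Of 85 ribosomal protein genes 1 rose and 1 fell, and of 75 listed nuclear genes of the respiratory chain 2 rose and 0 fell. That list did not hold Cox6a2, whose fall is given above.

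A list of 36 tested genes known as targets of hypoxia-inducible factors, written after values were seen, held 13 that fell and 1 that rose (median -0.32, against 0.01 over all genes tested). These factors switch on glycolysis and blood vessel growth when oxygen is low. Besides Vegfa, the vasodilator peptide gene Adm fell by 0.95 (adjusted p = 0.00120), the mitochondrial receptor Bnip3 by 0.83 (adjusted p = 0.00226), the glycolytic regulator Pfkfb3 by 0.81 (adjusted p = 0.00279) and the hexokinase Hk2 by 0.66 (adjusted p = 0.00352). The groups of each did not overlap, with Bnip3 at 10140 to 14730 normalized counts in controls and 4612, 8500, 8154 and 7515 after lesion. Without control replicate 6 or lesioned replicate 3, 8 members fell, and without lesioned replicates 1 or 4, 7 fell. In the Synpo+/+ DG 7 fell and 3 rose.

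Of 12 mitochondrially encoded mRNAs 1 fell and 0 rose (median -0.07). This was mt-Co1, which was at 406400 to 456300 normalized counts in controls and 245900, 345600, 311300 and 332400 after lesion and fell by 0.47 (adjusted p = 0.00718). Of 7 nuclear noncoding RNAs Snhg11 and Rian fell by 0.54 and 0.55 (adjusted p = 0.00137 and 0.00327) and Neat1 rose by 0.80 (adjusted p = 0.00551). Hmgb2, a chromatin protein of dividing cells, fell by 0.57 (adjusted p = 0.00647), while Mki67 rose.

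Of 9 tested choroid plexus genes, a list also written after values were seen, 5 rose. Lesioned replicate 2 summed to 9674 CPM over them and the other 3 lesioned libraries to 110 to 243 CPM, and 0 were called without it.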
